A study of Mus musculus with 24 samples.

Results

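A group of 10 immediate early genes was followed across 4 mouse tissues: the AP-1 family members Fos, Fosb, Fosl2, Jun and Junb, the zinc-finger factors Egr1 and Egr2, the orphan nuclear receptor Nr4a1, and Arc and Ier2. The genes were chosen by symbol, and all 10 were found among the 24195 gene symbols counted in each of 24 libraries. The libraries were bulk messenger RNA sequencing of whole hypothalamus, pituitary, uterus and ovary, from females labelled as Kdm4a knockouts (KO) and from wild-type (WT) females, with 3 libraries per tissue and genotype. The question posed by the series is how loss of Kdm4a, which encodes a histone demethylase, alters the hypothalamus, pituitary and reproductive tract at 2.5 days post coitus. KO and WT animals alike were C57BL6 females, 8 to 10 weeks old when mated and virgin until then, exposed for a short time to soiled bedding of a stud male before pairing. Presence of preimplantation embryos was checked in the flushed oviduct, and tissues were trimmed of fat and frozen. The Kdm4a allele and the cells in which it was removed are not given in the labels. The labels call the 3 libraries of a group biological replicates and do not tie libraries of different tissues to one animal.

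Immediate early genes are transcribed within minutes of a stimulus such as a hormone, a growth factor, a neurotransmitter, cell depolarisation or handling of the tissue, without the need for new protein synthesis. Their RNAs are short-lived. In many of them, transcription is started by serum response factor at serum response elements and by CREB at cAMP response elements. In the hypothalamus they are widely used to mark neurons that have recently been active, in the pituitary they respond to releasing hormones, and in the ovary and uterus they respond to gonadotropins and steroids. Fos and Jun proteins pair to form the AP-1 transcription factor.

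The sequences before the transcription starts are shown because response elements of immediate early genes are commonly sought there. Windows of 250 bases before the start were available for 7 of the 10 members (RefSeq, build GRCm38.p6), with 5 alternative starts for Egr2 and 11 windows in all. Bases inside an annotated exon were left out of what is printed. Egr2 is printed as an excerpt of 30 bases, and matches in its windows outside that excerpt are not shown. The window of Fosl2 is not printed. Capitals mark exact matches to the motifs searched on both strands: the serum response element (CArG box) by its name, the cAMP response element TGACGTCA and its 5-base part TGACG, the AP-1 site TGANTCA, the EGR site GCGNGGGCG and the NR4A site AAAGGTCA. A motif on the other strand appears as its reverse complement, so TGACG reads as CGTCA. The part TGACG is contained in TGACGTCA and overlaps it wherever the longer motif occurs.
Fos, chr12:85473640-85473889, plus strand: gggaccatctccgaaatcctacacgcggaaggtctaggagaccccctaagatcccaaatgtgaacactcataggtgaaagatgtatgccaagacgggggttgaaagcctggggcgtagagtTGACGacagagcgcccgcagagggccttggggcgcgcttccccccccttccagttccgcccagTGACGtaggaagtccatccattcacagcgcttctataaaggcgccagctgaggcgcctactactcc
Fosb, chr7:19310052-19310295, minus strand: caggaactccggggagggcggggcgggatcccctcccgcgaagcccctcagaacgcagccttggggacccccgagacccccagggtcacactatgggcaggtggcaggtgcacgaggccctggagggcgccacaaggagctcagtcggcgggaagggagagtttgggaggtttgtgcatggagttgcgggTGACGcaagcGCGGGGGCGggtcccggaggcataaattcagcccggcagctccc
Jun, chr4:95052223-95052472, minus strand: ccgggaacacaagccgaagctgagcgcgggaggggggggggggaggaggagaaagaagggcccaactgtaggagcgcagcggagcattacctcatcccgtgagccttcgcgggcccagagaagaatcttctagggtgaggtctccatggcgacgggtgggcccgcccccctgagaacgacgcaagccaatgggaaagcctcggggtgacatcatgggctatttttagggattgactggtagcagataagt
Junb, chr8:84978749-84978998, minus strand: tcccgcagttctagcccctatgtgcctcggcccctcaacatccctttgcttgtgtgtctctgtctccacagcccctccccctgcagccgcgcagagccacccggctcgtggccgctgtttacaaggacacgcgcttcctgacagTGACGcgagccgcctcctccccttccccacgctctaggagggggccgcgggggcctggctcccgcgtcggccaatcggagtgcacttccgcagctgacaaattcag
Nr4a1, chr15:101266596-101266845, plus strand: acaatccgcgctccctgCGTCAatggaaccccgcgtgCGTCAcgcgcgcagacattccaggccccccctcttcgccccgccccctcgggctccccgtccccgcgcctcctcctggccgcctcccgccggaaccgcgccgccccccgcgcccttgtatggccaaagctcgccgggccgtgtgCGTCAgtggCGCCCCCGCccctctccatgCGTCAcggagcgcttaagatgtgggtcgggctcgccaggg
Egr2, chr10:67537793-67537822, plus strand: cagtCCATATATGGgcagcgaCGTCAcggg

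The part TGACG was found in 7 of the 11 windows, which belong to 5 members and include 3 overlapping windows of Egr2. There were 4 matches before Nr4a1, 2 each before Fos and the starts of Egr2 that held any, and 1 each before Fosb and Junb. Of all 32851 promoter windows of this length, 17.8% held at least 1 such match. The serum response element was matched in 4 of the 5 windows of Egr2, in no window of another member and in 1.47% of all windows. An EGR site was matched before Fosb, Fosl2 and Nr4a1 and in 4.70% of all windows. The full TGACGTCA, the AP-1 site and the NR4A site were matched before none of the 7 members, against 1.55%, 6.75% and 1.34% of all windows. No motif was matched before Jun. These are letter matches in a fixed window, and no binding was measured.

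**Figure D1:**
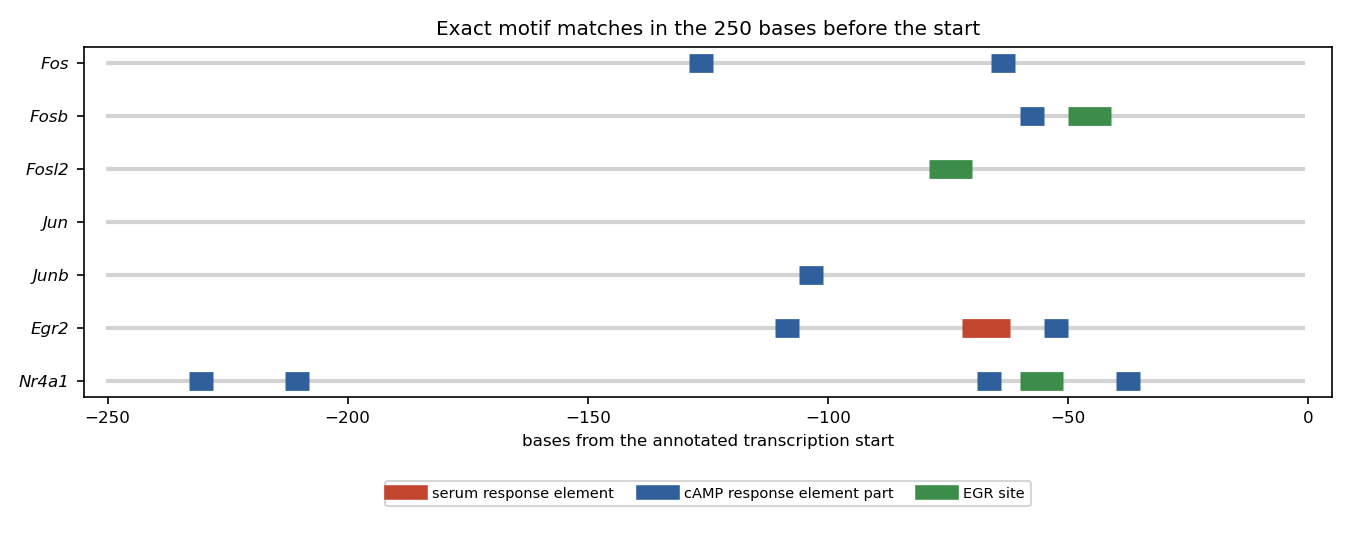
Positions of the exact motif matches in the 250 bases before the annotated start of 7 members, with distance from the start in bases on the x axis and 1 row per gene (for Egr2, the start with the most matches that lies farthest upstream). Nr4a1 carries 4 blue matches of TGACG and 1 green EGR site, Egr2 carries the red serum response element at bases -72 to -63, and Jun carries no match.

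Members were counted in 13201596 to 23865382 reads per library. Levels are given as CPM, a gene's counts relative to the total of its library, scaled between libraries by the trimmed mean of M values (TMM). Marker genes followed the tissue labels: 8 ovarian markers summed to between 6503 and 19762 CPM in ovary and at most 99.3 CPM elsewhere, and the pituitary hormones Prl and Gh took 34.7% to 54.8% of pituitary counts. Kdm4a itself separated the genotypes in uterus, with 58.8, 59.1 and 64.0 CPM in KO-labelled against 89.5, 88.7 and 78.9 CPM in WT libraries. In the other tissues the genotypes overlapped for Kdm4a, with 32.8 to 66.9 CPM in KO-labelled against 28.6 to 44.6 CPM in WT hypothalamus, 47.03 to 69.2 CPM in KO-labelled against 50.03 to 58.8 CPM in WT pituitary, and 33.4 to 79.1 CPM in KO-labelled against 69.9 to 74.9 CPM in WT ovary. Because the targeted gene did not separate the genotypes there and the allele is not given, the knockout libraries are called KO-labelled throughout. Libraries that stood apart were ovary KO-labelled replicate 2 and hypothalamus KO-labelled replicate 2, in which the ribosomal RNA gene Rn45s took 3.87% and 1.21% of counts, against at most 0.287% in any other library. In bulk tissue, fewer cells of a type and less RNA per cell cannot be told apart.

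**Figure D2:**
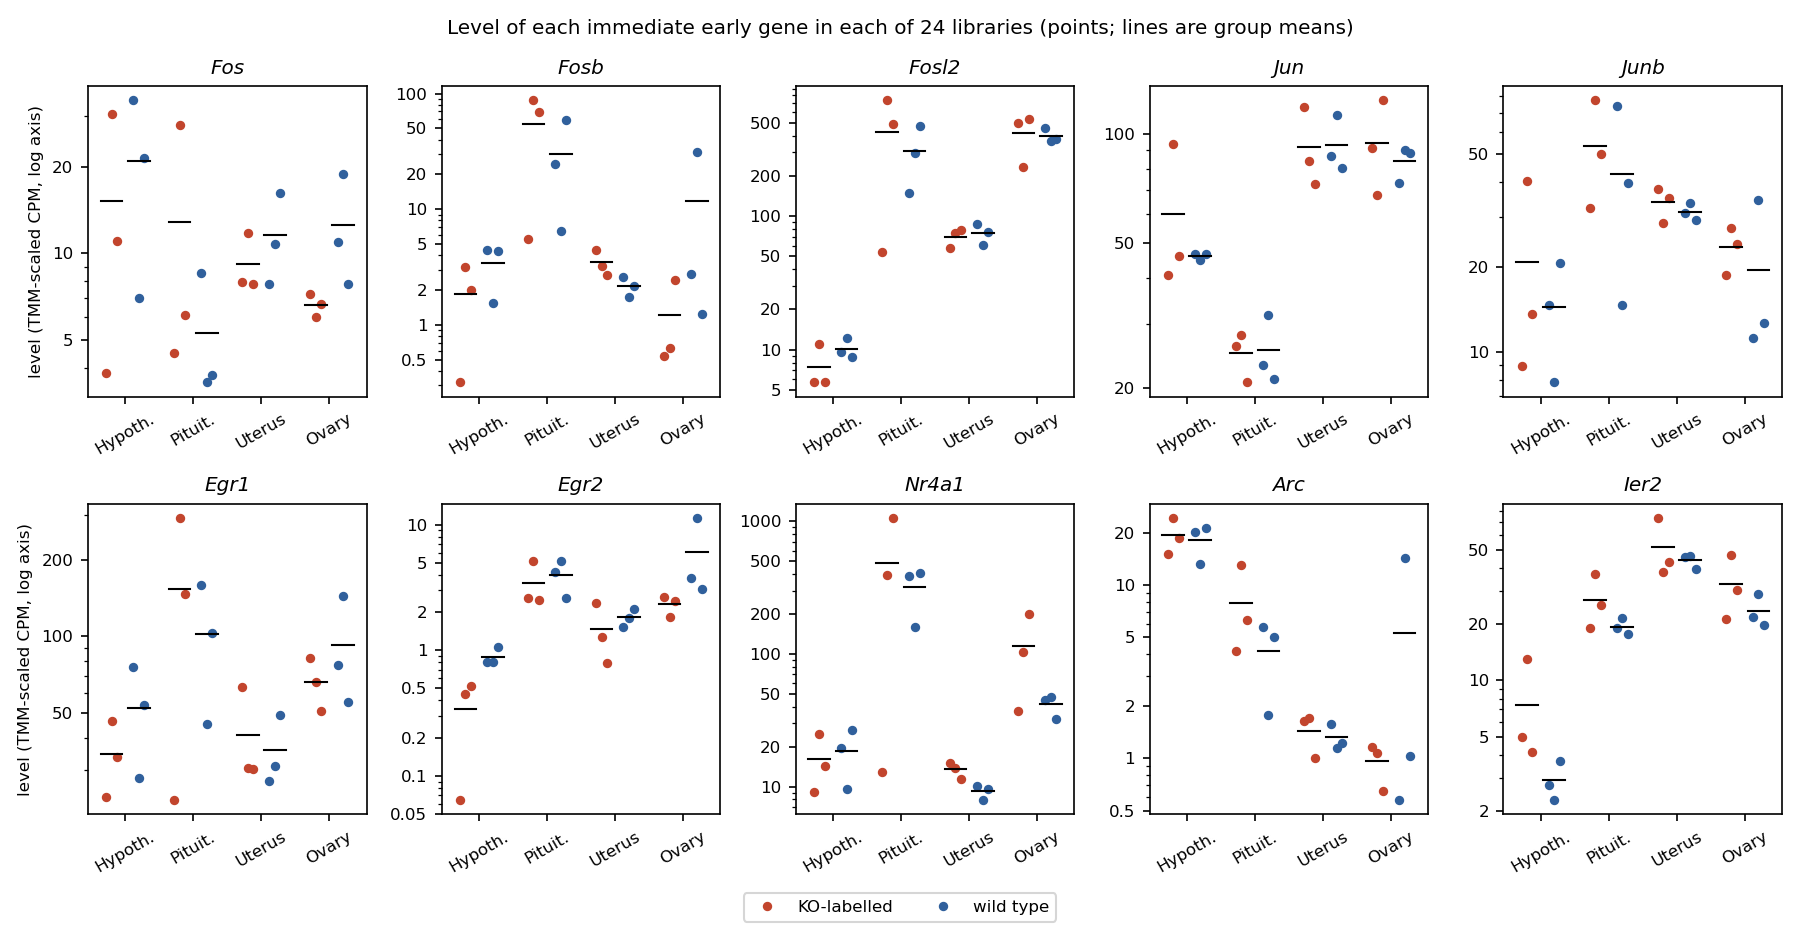
TMM-scaled CPM on a log axis for each member in each of 24 libraries, by tissue, with KO-labelled libraries in red left of WT libraries in blue and black lines at group means (n = 3 each). Fosl2 and Nr4a1 lie highest in pituitary and ovary, Ier2 in uterus and Arc in hypothalamus, and WT ovary holds 1 library far above the rest for Fosb and Arc.

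The members did not share a tissue profile. Arc, which encodes a synaptic protein induced by neuronal activity, had its highest mean in hypothalamus, as did Fos. Nr4a1, Fosb, Junb and Egr1 had theirs in pituitary, Fosl2 and Egr2 in pituitary or ovary, Jun in uterus or ovary, and Ier2 in uterus. Tissue differences were tested with edgeR's quasi-likelihood test on the 12 WT libraries, with Benjamini-Hochberg adjustment over 16399 genes, and the same contrasts in the 12 KO-labelled libraries are given beside them. All 10 members passed the filter on low counts. Of 60 contrasts (10 members in 6 tissue pairs), 30 passed an adjusted p of 0.05 in KO-labelled libraries and 34 in WT libraries, 23 of them in both and in the same direction. Over all genes in the same 6 pairs, 54.6% of contrasts passed in KO-labelled and 66.4% in WT libraries. For the 23, no share over all genes is given, so they are not read as particular to the members. Same-numbered KO-labelled libraries of pituitary and uterus deviated together. With the number as a replicate block in those 6 libraries alone, 3 members passed between these tissues (Jun, Egr2 and Arc), beside 75.7% of all genes. Without the block 8 members passed, beside 10722 of 15314 genes.

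Fos (chr12:85473890-85477273, positions here and below from the GENCODE M21 annotation of mm10), the prototype of the family, averaged 15.2 ± 13.8 CPM in hypothalamus, 12.8 ± 13.1 in pituitary, 9.19 ± 2.26 in uterus and 6.63 ± 0.595 in ovary of KO-labelled females (SD, n = 3 each). In WT females the means were 20.9 ± 13.6 CPM in hypothalamus, 5.29 ± 2.83 in pituitary, 11.6 ± 4.30 in uterus and 12.6 ± 5.68 in ovary. Hypothalamus exceeded pituitary by a log2 difference of 0.24 in KO-labelled libraries (adjusted p = 0.795) and of 1.89 in WT libraries (SE 0.53, adjusted p = 0.00642, edgeR). No neighbours in the WT order of hypothalamus, ovary, uterus and pituitary differed past the threshold, with adjusted p values of 0.246, 0.885 and 0.0673.

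Fosb (chr7:19302696-19310051), a Fos paralogue with a longer-lived splice product in brain, was measured at 5.58, 87.7 and 69.2 CPM in KO-labelled and 24.5, 6.44 and 59.6 CPM in WT pituitary. Uterus held 2.72 to 4.43 CPM in KO-labelled and 1.73 to 2.61 CPM in WT libraries. Pituitary was thus above uterus in every library, by a log2 difference of 3.97 in KO-labelled (adjusted p = 0.00164) and 3.80 in WT females (SE 1.09, adjusted p = 0.00795). With the replicate block in KO-labelled pituitary and uterus alone, the difference was 3.47 (adjusted p = 0.131). Against ovary, pituitary was higher by 5.46 in KO-labelled libraries (adjusted p = 0.00034) and by 1.39 in WT libraries (SE 0.97, adjusted p = 0.235). The WT ovary mean of 11.7 ± 16.8 CPM rested on replicate 2, with 31.1 CPM beside 2.76 and 1.24 CPM. Without that library the WT difference between pituitary and ovary was 3.95 (adjusted p = 0.000566).

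Fosl2 (chr5:32135801-32157842), which encodes Fra-2, was the member with the widest separation of tissues. It averaged 426 ± 346 CPM in pituitary and 420 ± 164 in ovary, against 70.1 ± 11.01 in uterus and 7.44 ± 3.05 in hypothalamus of KO-labelled females. In WT females the means were 305 ± 162 CPM in pituitary, 398 ± 52.3 in ovary, 74.8 ± 13.5 in uterus and 10.2 ± 1.75 in hypothalamus. Pituitary and ovary did not differ past the threshold, with a log2 difference (pituitary over ovary) of 0.03 in KO-labelled (adjusted p = 0.98) and -0.36 in WT libraries (adjusted p = 0.306). Hypothalamus lay below ovary by -5.81 in KO-labelled (adjusted p = 1.68e-05) and -5.36 in WT libraries (SE 0.36, adjusted p = 5.19e-09).

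Jun, the main AP-1 partner of Fos, averaged 91.7 ± 23.7 CPM in uterus, 94.4 ± 28.1 in ovary, 60.2 ± 29.2 in hypothalamus and 24.9 ± 3.74 in pituitary of KO-labelled females. In WT females its means were 93.3 ± 17.1 CPM in uterus, 84.0 ± 9.39 in ovary, 46.1 ± 1.05 in hypothalamus and 25.3 ± 5.58 in pituitary. Pituitary was below uterus by -1.88 in KO-labelled (adjusted p = 0.000315) and -1.87 in WT libraries (SE 0.18, adjusted p = 4.55e-07), and below hypothalamus in both genotypes. Uterus and ovary differed by less than the spread between libraries. Junb, an AP-1 subunit that can restrain Jun, had its highest means in pituitary, with 53.2 ± 22.8 CPM in KO-labelled and 42.7 ± 29.7 CPM in WT libraries. Its hypothalamus was lowest among the WT means, and hypothalamus lay below pituitary by -1.35 in KO-labelled (adjusted p = 0.0253) and -1.67 in WT libraries (SE 0.53, adjusted p = 0.0139). Reads of Junb (chr8:84974484-84978718) are uncertain, since Prdx2 overlaps it on the other strand and the library kit does not mark strand. An antisense gene, Junos, likewise overlaps Jun (chr4:95049034-95052222).

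Egr1 and Egr2 bind GC-rich sites, and Egr1 in the pituitary gonadotrope is needed for transcription of the luteinizing hormone beta subunit. Egr1 was measured at 22.7, 291 and 146 CPM in KO-labelled and 159, 45.4 and 103 CPM in WT pituitary. Pituitary exceeded uterus by 1.90 in KO-labelled (adjusted p = 0.0178) and 1.53 in WT libraries (SE 0.46, adjusted p = 0.00913), while no neighbours in the WT order of pituitary, ovary, hypothalamus and uterus differed past the threshold. The KO-labelled difference was 1.56 with the replicate block in pituitary and uterus alone (adjusted p = 0.449). Egr2 (chr10:67535475-67542188) was low, with at most 11 counts in KO-labelled and at most 15 counts in WT hypothalamus. Its means in ovary were 2.33 ± 0.435 CPM in KO-labelled and 6.06 ± 4.57 CPM in WT libraries. Hypothalamus was below ovary by -2.70 in KO-labelled (adjusted p = 0.00208) and -2.84 in WT libraries (SE 0.52, adjusted p = 0.000179).

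Nr4a1 (Nur77, chr15:101254269-101274795), which acts in the pituitary response to corticotropin-releasing hormone and in ovarian steroidogenesis, had the widest range in pituitary. The KO-labelled pituitaries held 12.9, 390 and 1057 CPM, against 387, 159 and 408 CPM in WT pituitaries. In ovary it was at 37.4, 104 and 200 CPM in KO-labelled and 44.8, 47.4 and 32.5 CPM in WT libraries, and in uterus at 11.5 to 14.9 CPM in KO-labelled and 7.87 to 10.2 CPM in WT libraries. In WT libraries each step of the order pituitary, ovary, hypothalamus and uterus passed the threshold, with log2 differences of 2.96, 1.24 and 0.92 (adjusted p = 5.67e-06, 0.00562 and 0.0314). In KO-labelled libraries the same steps were 2.10, 2.81 and 0.26 (adjusted p = 0.0798, 0.0231 and 0.816). Per kilobase of exon, pituitary Nr4a1 reached 139 CPM in KO-labelled and 90.6 CPM in WT libraries, the highest group means of any member on that scale.

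Arc (chr15:74669083-74672570) was measured at 15.2, 24.4 and 18.8 CPM in KO-labelled and 20.2, 13.2 and 21.3 CPM in WT hypothalamus. Ovary held 1.16, 1.08 and 0.649 CPM in KO-labelled against 0.573, 14.3 and 1.03 CPM in WT libraries. Hypothalamus exceeded ovary by 4.33 in KO-labelled libraries (adjusted p = 2.76e-06) and by 1.71 in WT libraries (SE 0.81, adjusted p = 0.0721), or by 4.39 without WT ovary replicate 2 (adjusted p = 3.36e-06). Ier2 (chr8:84661331-84662852), a growth-factor-inducible nuclear protein, was lowest in the tissue where Arc was highest. It stood in hypothalamus at 7.37 ± 4.90 CPM in KO-labelled and 2.93 ± 0.734 CPM in WT libraries, and was highest in uterus, at 51.6 ± 19.4 CPM in KO-labelled and 43.8 ± 3.86 CPM in WT libraries. Hypothalamus lay below uterus by -2.80 in KO-labelled (adjusted p = 0.000127) and -4.002 in WT libraries (SE 0.23, adjusted p = 8.46e-10).

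Counted by tissue pair in WT libraries, 3 members were higher (Fos, Jun and Arc) and 6 lower in hypothalamus than in pituitary, where 30.8% and 30.2% of all genes tested were called in those directions. Against uterus, hypothalamus had 2 members higher (Nr4a1 and Arc) and 4 lower, with 36.8% and 38.9% of all genes. Against ovary it had 0 higher and 5 lower, with 35.2% and 36.2% of all genes. Pituitary had 5 members higher (Fosb, Fosl2, Egr1, Egr2 and Nr4a1) and 2 lower (Jun and Ier2) than uterus, with 33.7% and 35.6% of all genes. Pituitary had 1 member higher (Nr4a1) and 1 lower (Jun) than ovary, with 31.8% and 29.9% of all genes. Uterus had 1 member higher (Ier2) and 4 lower than ovary, with 32.7% and 26.4% of all genes. Most genes differed between these tissues, and the members were not tested against that background. The pituitary and ovary count was 5 of 10 when WT ovary replicate 2 was left out, through Fosb, Junb and Arc, beside 9566 of 16697 genes.

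Within most groups of 3 libraries, the members varied more widely than genes at large. The median coefficient of variation over the 10 members was 69.2% in KO-labelled and 52.0% in WT pituitary, where the median over all genes of at least 1 CPM was 17.1% and 14.6%. In hypothalamus it was 58.4% in KO-labelled and 34.7% in WT libraries, beside 24.3% and 20.6% for all genes. In ovary it was 29.2% in KO-labelled and 47.8% in WT libraries, beside 27.6% and 12.3%, so the members of KO-labelled ovary lay close to all genes. Uterus had the lowest member medians, with 25.6% in KO-labelled and 17.7% in WT libraries, still above the 17.2% and 10.4% of all genes. The member medians kept all 10 members, of which 9 averaged at least 1 CPM in both hypothalamus groups and in KO-labelled ovary. In pituitary 8 members in KO-labelled and 7 in WT libraries lay above the 90th percentile of all genes. In the same order, these counts were 6 and 5 in hypothalamus, 2 and 6 in ovary, and 2 and 2 in uterus. Jun varied from 2.28% in WT hypothalamus to 48.5% in KO-labelled hypothalamus, where replicate 2 held 93.8 CPM beside 40.8 and 46.1 CPM. In KO-labelled ovary it was at 29.7%, in KO-labelled uterus at 25.9% and in KO-labelled pituitary at 15.03%.

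Taken over all 24 libraries the members moved together, though less so without the 6 libraries named below. Deviations of log2(CPM + 1) from the mean of the own group were correlated positively in all 45 pairs of members over the 24 libraries, with a median r of 0.48, a highest of 0.80 (Fosb with Arc) and a lowest of 0.02 (Jun with Nr4a1). These r values are descriptions: the 24 points share library depth and scaling, and 16 of them are free once each group's mean is removed. Fosb followed the mean of the other 9 members most closely, with r = 0.88, and Egr1 had r = 0.86. Jun followed it least, with r = 0.24.

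A few libraries stood out for most members at once. Pituitary KO-labelled replicate 1 was lowest of its group for 8 of 10 members, with a mean deviation of -1.32 on the log2 scale, and pituitary KO-labelled replicate 2 was highest for 9 members, with 0.95. Hypothalamus KO-labelled replicate 1 was lowest for 9 members, with -0.60, and replicate 2 highest for 9, with 0.71. WT ovary replicate 2 was highest for 9 members, with 0.82, and WT hypothalamus replicate 2 was lowest for 9, with -0.47. Without these 6 libraries, which were picked for their member values, the median r over the 45 pairs was 0.10, with 25 pairs positive (16 libraries, 10 free deviations). Fosb still followed the other members with r = 0.75, Junb with 0.61, Nr4a1 with 0.60, Egr1 with 0.56, Arc with 0.54 and Fos with 0.20. Fosl2 (-0.26), Jun (-0.14), Egr2 (-0.094) and Ier2 (-0.010) did not. Leaving out 1 library at a time gave medians from 0.38 to 0.54 with at least 38 pairs positive, the lowest median without pituitary KO-labelled replicate 2 and the fewest positive pairs without replicate 1.

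Other values of these libraries had no single direction. The rank correlation of each gene's deviation from its tissue mean with transcript length was -0.56 in pituitary KO-labelled replicate 1 and -0.70 in hypothalamus KO-labelled replicate 1, but 0.72 in WT hypothalamus replicate 2, and all 3 were low for the members. It was -0.64 in ovary KO-labelled replicate 2, whose mean member deviation was -0.08. In WT ovary replicate 2 it was 0.35, beside 0.44 and 0.33 in the other WT ovaries. Hypothalamus KO-labelled replicate 2, high for the members and with 1.21% of counts from Rn45s, had a rank correlation of 0.74 with GC content. In the other libraries high for the members, that with GC was 0.20 (pituitary KO-labelled replicate 2) and -0.41 (WT ovary replicate 2). In those low for the members it was 0.54 (pituitary KO-labelled replicate 1), 0.054 (hypothalamus KO-labelled replicate 1) and -0.25 (WT hypothalamus replicate 2). Summed adipocyte markers reached 525 CPM in WT ovary replicate 2, beside 11.5 and 174 CPM in the other WT ovaries, and 185, 6.72 and 102 CPM in KO-labelled ovaries. The part of these values in the pattern was not tested.

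**Figure D3:**
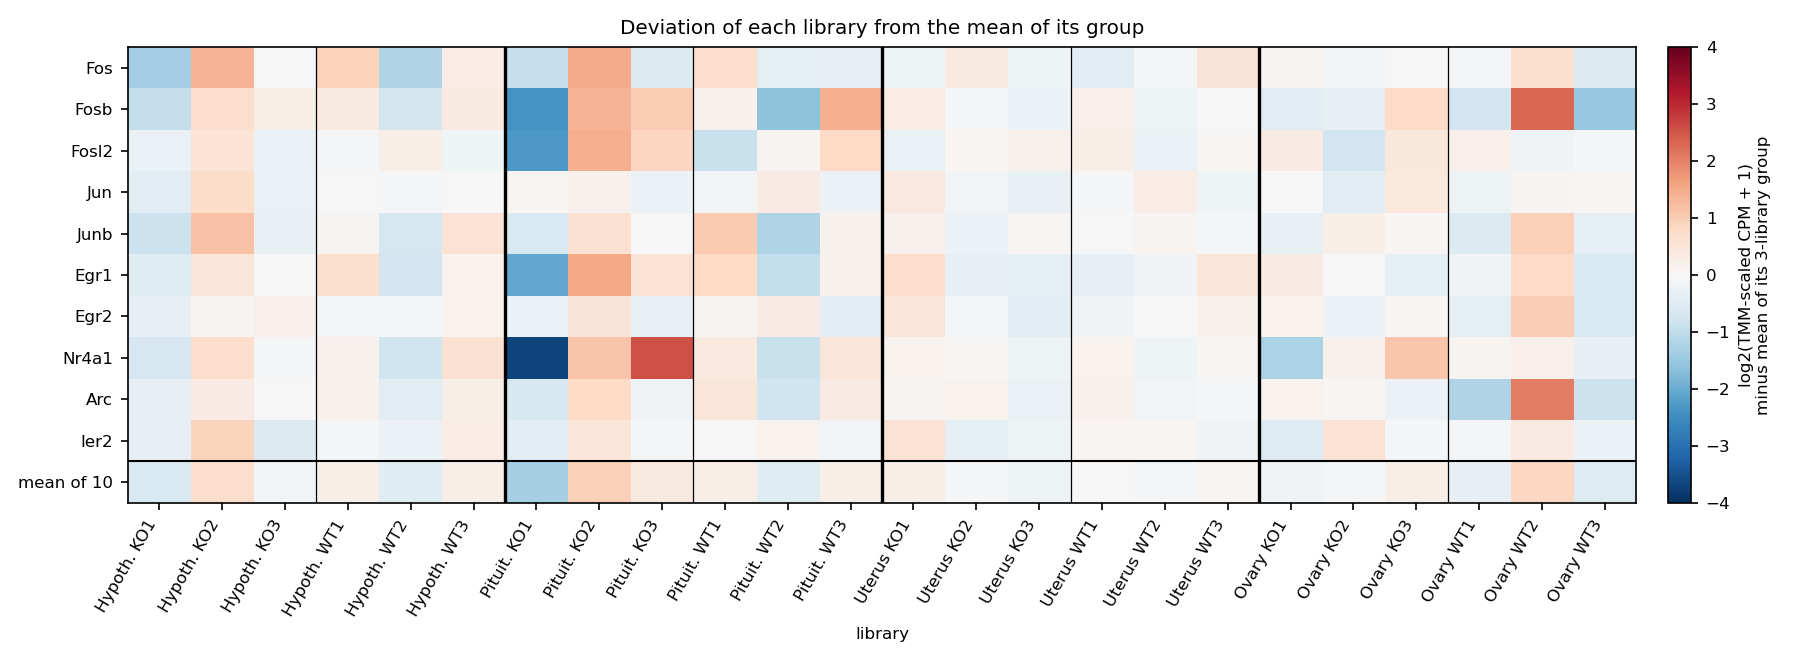
Heat map of the deviation of each member (rows) in each library (columns, KO-labelled left of WT within each tissue) from the mean log2(TMM-scaled CPM + 1) of its group of 3, with the mean of the 10 members as the last row. Red columns are high and blue columns low for most members at once, with pituitary KO-labelled replicate 1 at -1.32, pituitary KO-labelled replicate 2 at 0.95 and WT ovary replicate 2 at 0.82 in the last row.

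Among 11780 other genes of at least 1 CPM in each tissue, the 10 whose deviations were most like the mean of the members were Taf5 (r = 0.85), Zfp830 (0.83), Trib1 (0.82), Sik1 (0.81), Btg2 (0.76), Rbm5 (0.74), Nfil3 (0.74), Cbx8 (0.72), Prpf38b (0.72) and Gadd45b (0.70). Trib1, Sik1, Btg2 and Gadd45b belong to the list of 38 other rapid-response genes. Over the 30 genes of that list at this level, the median r was 0.43, with a range from -0.37 to 0.82, beside a median of -0.02 over the 11780 genes. By tissue, r for Btg2 was 0.70 in hypothalamus, 0.88 in pituitary, 0.31 in uterus and 0.98 in ovary, and r for Taf5 was -0.73 in uterus.

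No member was called between genotypes in any tissue. Each tissue's 3 KO-labelled and 3 WT libraries were compared with edgeR's quasi-likelihood test, adjusted over all genes tested. In hypothalamus 0 of 10 members passed, as did 0.0% of 14788 genes. In pituitary 0 of 10 passed beside 0.0424% of 14163 genes, in uterus 0 of 10 beside 0.349% of 14910 genes, and in ovary 0 of 10 beside 0.0% of 14460 genes. DESeq2 and limma-voom also called 0 members in every tissue. Over all genes, DESeq2 called 7 of 18797 in hypothalamus, 43 of 18012 in pituitary, 496 of 19053 in uterus and 43 of 18761 in ovary. With limma-voom these were 0 of 14788, 1 of 14163, 45 of 14910 and 0 of 14460. At an unadjusted p under 0.05 the members numbered 1 in hypothalamus beside 6.76% of all genes, 0 in pituitary beside 12.3%, 1 in uterus beside 12.7% and 4 in ovary beside 7.68%. The authors' deposited tables give an adjusted p for 36 of the 40 values of these members, and 0 were under 0.05, the smallest being 0.16 for Nr4a1 in uterus. The 4 left blank in the authors' deposited tables are Fosb and Arc in ovary and Fos and Egr2 in pituitary. Standard errors reached 1.47 on the log2 scale, for Nr4a1 in pituitary, and differences of that size were not detectable there. The median log2 fold change (KO-labelled over WT) over the members was -0.37 in hypothalamus, 0.51 in pituitary, 0.12 in uterus and -0.21 in ovary, against 0.01, 0.00, 0.01 and 0.03 over all genes tested.

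**Figure D4:**
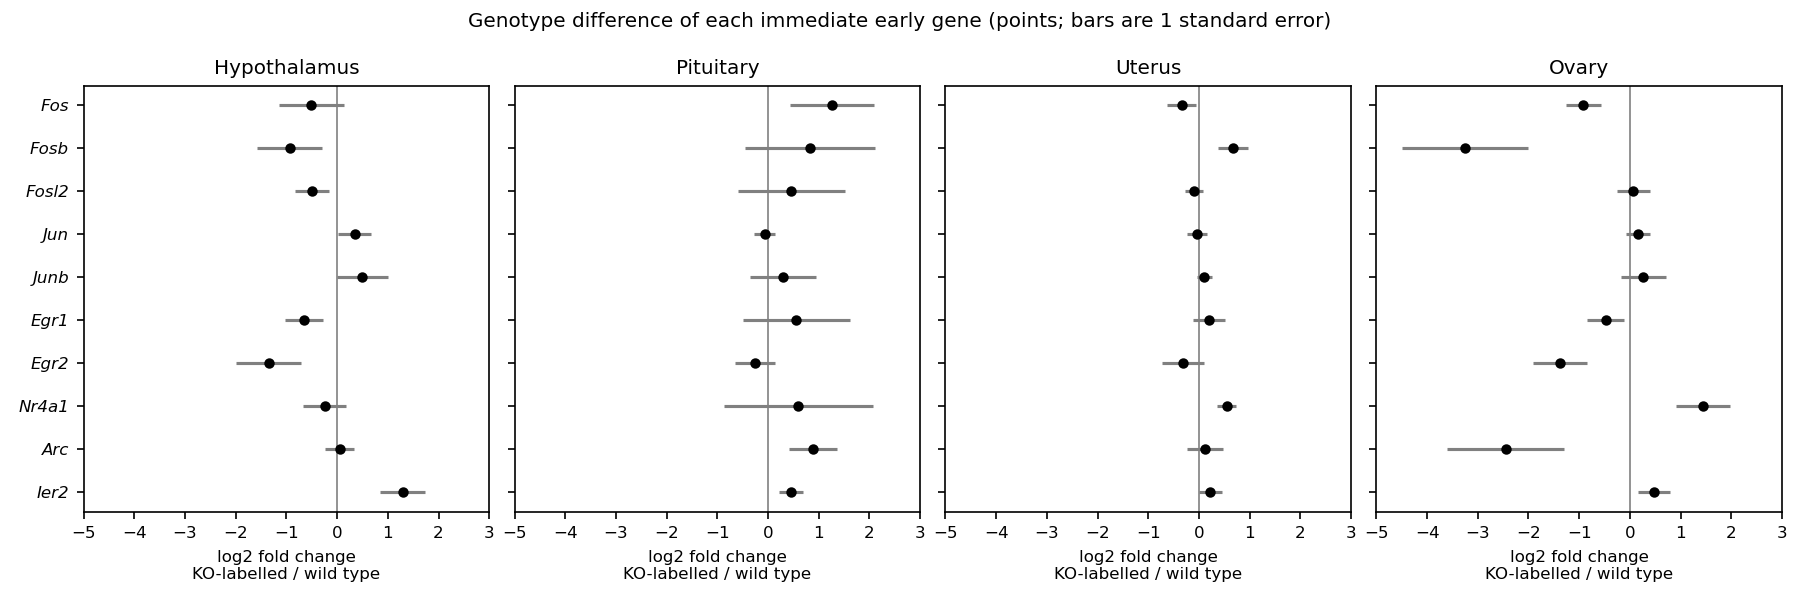
Log2 fold change, KO-labelled over WT, of the 10 members in each tissue, with bars of 1 standard error (edgeR, 3 libraries per genotype). No member passed an adjusted p of 0.05, and the bars are widest for Nr4a1, Fosb, Fosl2 and Egr1 in pituitary and for Fosb and Arc in ovary.

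In hypothalamus Ier2 was at 4.98, 13.0 and 4.13 CPM in KO-labelled against 2.77, 2.29 and 3.73 CPM in WT libraries, and the genotypes did not overlap. Its log2 fold change was 1.29 (SE 0.45, adjusted p = 0.588, edgeR), and 0.60 without KO-labelled replicate 2. Egr2 was lower in every KO-labelled library, at 0.0638, 0.445 and 0.517 CPM against 0.802, 0.801 and 1.06 CPM in WT libraries, which rests on 1, 8 and 11 counts in KO-labelled and 11, 14 and 15 counts in WT libraries. Its log2 fold change was -1.35 (SE 0.65, adjusted p = 0.588). These were the only members without overlap, 1 in each direction, where 8.09% of genes lay higher and 3.41% lower in KO-labelled libraries without overlap. Fos spanned 3.83, 30.6 and 11.1 CPM in KO-labelled and 34.2, 6.98 and 21.5 CPM in WT libraries. Junb spanned 8.93, 40.1 and 13.6 CPM in KO-labelled and 14.7, 7.84 and 20.6 CPM in WT libraries, and the genotypes overlapped throughout. Summed neutrophil markers, all 6 detected, were 1.45 to 2.62 CPM in KO-labelled and 3.20 to 4.96 CPM in WT hypothalamus, and their part in these values was not tested.

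In pituitary every member overlapped between genotypes, where 11.3% of genes lay higher and 8.0% lower without overlap. The fold change of Nr4a1 was 0.60 (SE 1.47, adjusted p = 0.892). Fosl2 was at 53.8, 737 and 487 CPM in KO-labelled against 148, 295 and 472 CPM in WT libraries, with a fold change of 0.46 (SE 1.06, adjusted p = 0.885). Arc was at 4.18, 13.0 and 6.32 CPM in KO-labelled against 5.76, 1.78 and 5.02 CPM in WT libraries, with 0.89 (SE 0.48, adjusted p = 0.463). The directions of Nr4a1, Fosl2, Egr1, Fos, Jun and Junb turned with the library left out. Without KO-labelled replicate 1, in which Nr4a1 was 82.1-fold below the highest KO-labelled library, the fold changes were 1.18 for Nr4a1, 0.99 for Fosl2, 1.08 for Egr1 and 1.20 for Arc, all short of the threshold (lowest adjusted p over the 10 members 0.319, for Ier2). Without KO-labelled replicate 2 they were 0.74 for Nr4a1, -0.19 for Fosl2, -0.30 for Egr1 and 0.31 for Arc. Without KO-labelled replicate 3, Nr4a1 was at -0.68. Summed endothelial markers were 310 to 366 CPM in KO-labelled and 167 to 238 CPM in WT pituitary, and neutrophil markers 1.81 to 4.10 CPM in KO-labelled and 9.96 to 162 CPM in WT pituitary. Prl and Gh took 45.4% to 54.8% of counts in KO-labelled and 34.7% to 44.1% in WT pituitary. The part of these in the members' values was not tested.

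In uterus Nr4a1 was at 14.9, 13.9 and 11.5 CPM in KO-labelled against 10.2, 7.87 and 9.53 CPM in WT libraries. Its log2 fold change of 0.54 (SE 0.18) missed the threshold with an adjusted p of 0.252, and was 0.46 to 0.64 when each library was left out. Fosb was at 4.43, 3.25 and 2.72 CPM in KO-labelled against 2.61, 1.73 and 2.15 CPM in WT libraries, a fold change of 0.67 (SE 0.30, adjusted p = 0.398). Both lay above WT without overlap, as did 9.4% of genes, while 0 members lay below without overlap beside 10.1% of genes. Fold changes of the other 8 members lay between -0.34 and 0.23. Summed neutrophil markers were 483 to 822 CPM in KO-labelled and 181 to 331 CPM in WT uterus, with Ngp at 0 in both genotypes and Camp at 0 in KO-labelled libraries. Summed oviduct markers were 46.7 to 90.7 CPM in KO-labelled and 101 to 128 CPM in WT uterus. Whether they bear on Nr4a1 and Fosb was not tested.

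In ovary Fos was lower in every KO-labelled library, at 7.21, 6.03 and 6.66 CPM against 11, 18.8 and 7.81 CPM in WT libraries. Its log2 fold change was -0.92 (SE 0.35, adjusted p = 0.597). Egr2 was also lower, at 2.68, 1.84 and 2.47 CPM in KO-labelled against 3.75, 11.3 and 3.10 CPM in WT libraries, with -1.38 (SE 0.54, adjusted p = 0.597). In all, 2 members lay below WT without overlap and 0 above, where 9.34% of genes lay lower and 8.31% higher. Nr4a1 had a fold change of 1.45 (SE 0.53, adjusted p = 0.597), opposite in sign to Fos and Egr2, with KO-labelled replicate 1 inside the WT range. When each library was left out in turn, including KO-labelled replicate 2 with its high Rn45s, these ran from -1.17 to -0.51 for Fos, from -1.69 to -0.56 for Egr2 and from 0.77 to 1.86 for Nr4a1. The fold changes of Fosb, -3.25 (SE 1.25), and Arc, -2.45 (SE 1.15), rested on WT replicate 2. Without it they were -0.71 for Fosb and 0.24 for Arc, those of Fos and Egr2 were -0.51 and -0.56, and that of Nr4a1 was 1.55 (adjusted p = 0.923 for Fosb, Fos, Egr2 and Nr4a1 and 0.945 for Arc). Summed macrophage markers were 221 to 311 CPM in KO-labelled and 155 to 204 CPM in WT ovary, and smooth muscle markers 1420 to 2154 CPM in KO-labelled and 1361 to 1398 CPM in WT ovary, with all 5 markers of each list detected. Neutrophil markers were 1.71 to 2.94 CPM in KO-labelled and 3.35 to 4.48 CPM in WT ovary, with Ngp at 0 in WT libraries. Whether they bear on the members was not tested.

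Whether the genotype effect depended on the tissue was asked in an interaction test on the 24 libraries. It passed for 0 of 10 members beside 0.053% of 16971 genes. DESeq2 and limma-voom likewise called 0 members, beside 134 of 20572 and 17 of 16971 genes. At an unadjusted p under 0.05 were 7.37% of all genes, and among the members Arc (adjusted p = 0.588) and Fosb (adjusted p = 0.628), those that WT ovary replicate 2 stood out for.

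Further lists were read beside the members. Of the 38 other rapid-response genes, 37 were tested in hypothalamus, 34 in pituitary, 35 in uterus and 33 in ovary, and 0 passed in any tissue. Their median log2 fold changes were 0.10, 0.40, 0.03 and -0.19 in that order of tissues. The nearest to the threshold were Ier5l and Ptgs2 in uterus. Ier5l was at 17.3, 10.1 and 10.5 CPM in KO-labelled against 5.51, 6.35 and 4.61 CPM in WT libraries (log2 fold change 1.19, SE 0.25, adjusted p = 0.0862). Ptgs2, the inducible cyclooxygenase of prostaglandin synthesis, was at 7.15, 10.2 and 13.7 CPM in KO-labelled against 3.46, 3.54 and 5.17 CPM in WT libraries (1.35, SE 0.29, adjusted p = 0.0894). The genotypes did not overlap for either gene, and 9.4% of all genes in uterus lay higher without overlap. Both genes were picked for their low p, so the lack of overlap adds nothing to it. The genes of lowest p in the other tissues were Jund (1.18) and Cyr61 (0.79) in hypothalamus, Maff (1.47) and Socs3 (0.57) in pituitary, and Ier5l (0.91) and Ctgf (-1.34) in ovary, with adjusted p values between 0.306 and 0.597.

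The 13 heat shock genes, which rise in stressed tissue, were all tested and 0 passed in any tissue, with medians of 0.19 in hypothalamus, -0.02 in pituitary, 0.27 in uterus and 0.06 in ovary. Summed over the other rapid-response list, the libraries that were high for the members were also the highest of their groups, with 2409 CPM in pituitary KO-labelled replicate 2, 1418 CPM in hypothalamus KO-labelled replicate 2 and 2272 CPM in WT ovary replicate 2. Of the libraries low for the members, pituitary KO-labelled replicate 1 (983 CPM) and WT hypothalamus replicate 2 (887 CPM) were lowest of their groups. Hypothalamus KO-labelled replicate 1 was not, with 1119 CPM beside 1009 CPM in replicate 3.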

How the data were processed

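Poly(A) RNA libraries (TruSeq v2, a kit that does not mark strand, 13 PCR cycles) were made per the labels' protocols. Per the submitters' processing notes, FastQC, Trimmomatic, STAR, HTSeq and DESeq2 were used with build mm10, without versions. Per-symbol read counts, not normalized, were deposited by the authors, with DESeq2 log2 fold changes with standard errors, and p-values and adjusted p-values, for KO over WT in each tissue. Of 24222 entries, 27 turned into dates (0.122% to 0.392% of counts) were left out. Counts were analysed with edgeR 4.0.16 in R 4.3.3 (TMM, filterByExpr, robust quasi-likelihood test, Benjamini-Hochberg adjustment over all genes tested), and with DESeq2 1.42.0 and limma 3.58.1 as alternatives. The fits were tested on simulated data. Levels are CPM with TMM factors over 24 libraries, likeness used log2(CPM + 1), and gene positions and lengths are GENCODE M21. All 10 members were named, with the 10 genes most like them, and with the 2 genes of lowest p per tissue where no gene of the other rapid-response list passed. Members and lists were chosen with earlier results of these data known. P-values between genotypes measure the spread between 3 libraries per group within a tissue. In the tests between tissues, the 4 tissues shared an estimate of spread for each gene. A library far from its group there also bears on contrasts of other tissues. The interaction test likewise pooled the spread of all 24 libraries. Replicate pairs differed beyond counting noise in all 24 pairs. Same-numbered KO-labelled libraries of pituitary and uterus deviated together (r = 0.52, 0.35 and 0.19), so they were also compared with the number as a block, although the labels do not tie them to one animal. A list of upstream regulators is not reported here.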

Additional observations from a re-analysis of the deposited data

How the results depend on the processing

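No genotype call among the members, in any of the 4 tissues or between them, appeared under another scaling or filter, DESeq2, limma-voom, removal of GC and length trends, a replicate block, 1 fit over 24 libraries, or leaving out each library in turn (0 to 0 members called). Over all genes, DESeq2 called the most of these settings, with 7 of 18797 in hypothalamus and 43 of 18012 in pituitary. In uterus it called 496 of 19053, in ovary 43 of 18761 and between tissues 134 of 20572. Leaving out 1 library gave 0 to 171 called genes in uterus. With so few genes called, 0 of 10 says little about the members. The directions of the members' uncalled fold changes were not stable: 5 members changed sign under at least 1 alternative in hypothalamus, 6 in pituitary, 6 in uterus and 5 in ovary. Of the tissue counts, pituitary over ovary (2 members, beside 10106 of 16399 genes) became 6 with library totals and no TMM (12134 of 16399 genes). It was 4 in KO-labelled libraries (8343 of 16545 genes) and between 2 and 5 with 1 library left out. The 5 came without WT ovary replicate 2 (9566 of 16697 genes). Uterus over ovary (5, beside 9692 of 16399 genes) became 2 in KO-labelled libraries (6653 of 16545 genes). Some alternatives were chosen after seeing the data: removal of GC and length trends in the test between tissues, leaving libraries out of the likeness values, and a replicate block in KO-labelled libraries. That block gave 4 for pituitary over ovary (8071 of 16545 genes) and 2 for uterus over ovary (6364 of 16545 genes). Over all 60 contrasts it gave 32 calls against 30, with 0 lost. Over all genes it called 6364 to 10670 of 16545 per tissue pair, against 6653 to 10835 without it. In KO-labelled pituitary and uterus alone it gave 3 members (11592 of 15314 genes) against 8 without the block (10722 of 15314 genes). Nr4a1, hypothalamus over uterus, was 0.92 in WT libraries and -0.031 in KO-labelled libraries with the block. Left out 1 library at a time, hypothalamus gave 6 to 10 calls over pituitary, 4 to 7 over uterus and 5 to 7 over ovary. Pituitary gave 6 to 8 over uterus, and uterus 4 to 7 over ovary. Of 16687 to 16746 genes, the calls in the same order were 9208 to 10138, 11758 to 12659, 11030 to 11896, 10503 to 11902 and 8463 to 10470. Arc, pituitary over ovary, was -0.32 in WT libraries and turned to 3.03 in KO-labelled libraries, to 2.93 there with the replicate block, and to 2.36 without WT ovary replicate 2, with a range of -0.86 to 2.36 when each library was left out. Same-numbered KO-labelled and WT libraries deviated with r between -0.35 and 0.27, WT libraries of different tissues with r between -0.18 and 0.16, KO-labelled libraries of different tissues with r between -0.50 and 0.52, and 5 of 24 libraries were most like their own number in the other genotype. Every r was over 0.1 only for KO-labelled pituitary and uterus. Other KO-labelled pairs were mixed, with r for numbers 1, 2 and 3 of 0.34, -0.0071 and 0.40 between hypothalamus and pituitary. Between uterus and ovary they were -0.35, -0.50 and 0.35. Number 3 had a positive r in each KO-labelled tissue pair. Whether same-numbered libraries share an animal or a batch was not tested. The replicate block left 0 members called between genotypes in every tissue. Beside them were 0 of 14788 genes in hypothalamus, 33 of 14163 in pituitary, 38 of 14910 in uterus and 0 of 14460 in ovary. Low counts limit Egr2 in hypothalamus.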
